A study of Mus musculus with 2 samples.

Results

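Dividing C1q macrophages are tumour macrophages that carried RNA of the C1q chains together with RNA of genes switched on for cell division. They were picked out of the single-cell RNA sequencing of subcutaneous MC38 tumours, a transplanted colon carcinoma line of the mouse, carried by C57BL/6 mice in the right flank. A barcode, which stands for 1 captured cell, was counted as a C1q macrophage when it passed 6 limits. It had at least 200 detected genes and at most 20% mitochondrial UMIs (tags that count captured RNA molecules once). Lyz2, Ctss and Cd68 together made up at least 0.2% of its UMIs, Cd3d, Cd3e, Cd3g and Nkg7 together had at most 2 UMIs, and the tumour genes Igf2bp2, Igf2bp3 and Hmga2 together at most 1. C1qa, C1qb and C1qc together had at least 3 UMIs. A C1q macrophage was counted as dividing when Mki67, Top2a, Ube2c and Birc5 together had at least 2 UMIs, and as non-dividing when they had 0. This gave 586 dividing cells of 16508 barcodes in all, 404 of them in the SHP099 library and 182 in the control library, beside 1605 and 1604 non-dividing C1q macrophages. Since the cells were chosen by measured UMIs of these genes, their levels and those of other cell cycle genes describe the choice and test nothing.

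Both libraries came from mice bearing tumours that averaged 100 mm3 at day 5 after injection, when treatment began. In the SHP099 group, 6 mice were given SHP099 hydrochloride, an allosteric inhibitor of the phosphatase SHP2, into the stomach at 5 mg/kg every day for 14 days. In the control group, 6 mice were given PBS, and the labels also call them untreated. A single library was made per group, from a number of tumours that the sources used here do not give. With 1 library a group there is no replicate check and no test, and every 95% interval below covers counting error only. Intervals of shares are exact binomial ones, and those of levels and of their ratios are exact Poisson or conditional ones.

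Macrophages in tumours are fed by blood monocytes, which carry Ly6c2 and Ccr2 and lose them as they mature, and differentiated macrophages can also divide in place. C1q, the complement protein that starts the classical pathway and tags dying cells for uptake, is made by mature macrophages. In the cell cycle, E2F factors switch on DNA replication genes at the G1/S boundary, and a complex of MuvB with B-MYB and FOXM1 switches on mitosis genes in G2 and M. Replication promoters often hold E2F words, and mitosis promoters often pair a CHR (cell cycle genes homology region) word with CCAAT boxes, which NF-Y binds. SHP2, encoded by Ptpn11, carries signals from growth factor receptors, CSF1R among them, to the RAS-ERK pathway.

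The promoters of 5 genes are shown because Ube2c, Top2a and Mki67 were among the genes that chose the cells and Pclaf and Mcm5 stand for DNA replication. Ube2c encodes the ubiquitin-conjugating enzyme of the anaphase-promoting complex, Top2a the topoisomerase that untangles sister chromatids, and Mki67 the Ki-67 protein that coats mitotic chromosomes. Pclaf encodes a partner of the replication clamp PCNA, and Mcm5 a subunit of the replicative helicase. Each line gives 300 bases around the first listed transcription start on the gene's own strand, 5′ to 3′, from RefSeq on GRCm38.p6. Capitals mark the CHR word TTTGAA, the CCAAT word and the E2F words, which are TTGGCGC together with TTCCCGC as well as TTCGCGC. Both strands were searched, and an E2F word can share letters with CCAAT.
Ube2c, chr2:164769679-164769978, plus strand: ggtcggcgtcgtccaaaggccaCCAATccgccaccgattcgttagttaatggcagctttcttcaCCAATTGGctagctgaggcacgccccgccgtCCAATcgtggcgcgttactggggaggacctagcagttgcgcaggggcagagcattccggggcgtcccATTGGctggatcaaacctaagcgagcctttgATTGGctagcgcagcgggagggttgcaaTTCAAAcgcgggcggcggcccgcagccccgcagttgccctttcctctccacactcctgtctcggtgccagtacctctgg
Top2a, chr11:99024140-99024439, minus strand: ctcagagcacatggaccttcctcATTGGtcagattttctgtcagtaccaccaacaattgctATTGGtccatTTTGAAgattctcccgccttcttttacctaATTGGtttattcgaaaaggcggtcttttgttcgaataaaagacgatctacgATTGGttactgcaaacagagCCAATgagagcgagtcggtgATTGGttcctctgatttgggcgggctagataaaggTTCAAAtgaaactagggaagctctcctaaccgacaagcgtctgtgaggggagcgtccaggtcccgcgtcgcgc
Mki67, chr7:135716330-135716629, minus strand: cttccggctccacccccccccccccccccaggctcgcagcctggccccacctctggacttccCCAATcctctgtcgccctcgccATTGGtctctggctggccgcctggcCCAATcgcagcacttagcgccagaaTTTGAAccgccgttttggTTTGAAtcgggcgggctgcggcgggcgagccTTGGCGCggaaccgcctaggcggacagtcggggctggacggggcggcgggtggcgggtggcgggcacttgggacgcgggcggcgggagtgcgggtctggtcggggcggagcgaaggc
Pclaf, chr9:65890073-65890372, plus strand: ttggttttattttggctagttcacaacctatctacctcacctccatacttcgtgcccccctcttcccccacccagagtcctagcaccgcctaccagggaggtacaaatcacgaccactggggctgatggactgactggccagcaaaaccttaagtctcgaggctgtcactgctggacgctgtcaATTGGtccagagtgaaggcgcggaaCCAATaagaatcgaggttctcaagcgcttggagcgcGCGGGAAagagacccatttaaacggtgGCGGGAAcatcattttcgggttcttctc
Mcm5, chr8:75109259-75109558, plus strand: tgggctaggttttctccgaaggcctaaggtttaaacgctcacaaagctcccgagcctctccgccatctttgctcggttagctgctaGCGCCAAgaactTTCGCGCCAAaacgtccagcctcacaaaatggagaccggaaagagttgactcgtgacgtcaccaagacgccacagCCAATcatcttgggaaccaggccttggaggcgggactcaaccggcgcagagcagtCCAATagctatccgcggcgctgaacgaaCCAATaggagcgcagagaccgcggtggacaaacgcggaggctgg
Counted from the start, a CHR word began at base -29 in the Ube2c promoter, at -23 and -179 in Top2a, and at -98 and -116 in Mki67. The Ube2c and Top2a promoters held 6 CCAAT words each, the Mki67 promoter 3 and also 1 E2F word at -67. The Pclaf and Mcm5 promoters held no CHR word but 2 and 3 E2F words, and those of Mcm5 at -152 and -149 overlap. The Birc5 window held none of these words, which says only that these letters are not in it.

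The same split ran through the gene lists used here. Of 73 mitosis genes, 58 had a promoter in the table, and 42 of these (72.4%) held the CHR word, against 18.1% of all 27025 promoters. Both CHR and CCAAT were in 35 of the 58 (60.3%), against 7.12% of all promoters. Of 63 DNA replication genes, 49 were matched, and 28 (57.1%) held an E2F word, against 12 of the 58 mitosis promoters (20.7%) and 8.21% of all promoters. CHR was in 8 of the 49 replication promoters (16.3%). A match is a description of the letters and not a binding site, and the lists were drawn up from known cell cycle genes.

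The dividing cells also carried macrophage genes that the rule did not ask for. Of the 14 macrophage markers, C1qa, C1qb, C1qc, Lyz2, Ctss and Cd68 were in the rule, and the other 8 had UMIs in both libraries too. All 14 together had summed levels of 39028 CPM (counts per 1e+06 of the cells' summed UMIs) in SHP099 dividing cells and 35372 CPM in control dividing cells, against 48719 and 48357 CPM in non-dividing cells. Ms4a7, a membrane protein of mature macrophages, stood at 1176 CPM in SHP099 and 1162 CPM in control dividing cells. Csf1r, the CSF1 receptor, stood at 320.5 CPM in SHP099 and 227 CPM in control dividing cells, and Adgre1, the F4/80 antigen, at 201 and 157 CPM. Xist, the X-inactivation RNA that MC38 tumour cells nearly lack, had a UMI in 392 of 404 and 175 of 182 dividing cells, against 8.15% and 8.75% of tumour cells. Markers of other immune cells were low but not absent. The rule held Cd3d, Cd3e and Cd3g of the T cell list and Nkg7 of the NK cell list to at most 2 UMIs together. The low T and NK cell sums follow in part from that choice and test nothing. The 10 T cell markers summed to 10.1 CPM in SHP099 and 17.6 CPM in control dividing cells, the 7 NK cell markers to 41.1 and 45.4 CPM, the 6 B cell markers to 52.8 and 63.8 CPM, the 8 neutrophil markers to 20.2 and 25.1 CPM and the 9 dendritic cell markers to 15.0 and 40.7 CPM. At least 1 UMI of the B cell list was in 24.3% and 25.8% of dividing cells, mostly of Ighm and Cd79b, of the neutrophil list in 13.4% and 16.5%, and of the dendritic list in 9.16% and 16.5%. In non-dividing cells these shares were 17.5% and 15.5%, 10.9% and 14.3%, and 5.17% and 5.05%. The cells were not thinned to equal depth for these shares, and the dividing cells were deeper, as given below. No order between dividing and non-dividing cells is read from them. Some of these markers, among them S100a9, Retnlg, Ly6g, Ms4a1 and Cd209a, were at 0 in the dividing cells of both libraries. Others were not, with Xcr1 at 8 UMIs in SHP099 and 2 in control, Clec9a at 1 and 4, and Zbtb46 at 3 and 1. Fscn1 of the dendritic list stood at 8.80 and 32.6 CPM, beside 107 and 106 CPM in dividing tumour cells. Klrk1 of the NK cell list stood at 37.2 and 40.7 CPM. What part these RNAs have in the results was not tested. The 7 monocyte markers summed to 463 CPM in SHP099 and 391 CPM in control dividing cells, against 1272.5 and 828 CPM in non-dividing cells.

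The dividing cells were also larger libraries than the rest. Their median depth was 6945.5 UMIs in SHP099 and 7296.5 in control, against 4215 and 4524 UMIs in non-dividing C1q macrophages, and the median mitochondrial share was 3.19% and 2.59%, against 2.87% and 1.92%. The 2 libraries shared 100 barcode sequences, of which 5 belonged to SHP099 dividing cells and 0 to control ones.

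Some dividing cells carried RNA of tumour cells or matrix, more of them in the control library. Summed over Col3a1, Dcn, Tnfrsf12a, H19, Ptn, Tubb3, Lrrn4cl, Pcdh18 and Nr2f1, 9 genes high in the MC38 tumour cells here, the level was 495 CPM in SHP099 and 1032 CPM in control dividing cells, against 428 and 316 CPM in non-dividing cells. In SHP099, 28 of 404 dividing cells (6.93%) had 5 or more UMIs of these genes, and in control 25 of 182 (13.7%), against 2.68% and 1.62% of non-dividing cells. Scrublet, which scores likely doublets, called 14 (3.47%) and 18 (9.89%) of the dividing cells and 0.81% and 0.873% of the non-dividing ones. Without the cells with 5 or more such UMIs, the dividing cells held 6.75% and 6.98% of the tumour cell level of the 9 genes, and their mitosis RNA stood at 120% and 89.1% of the level in dividing tumour cells. Both values follow from the choice of cells, since the same 9 genes set which cells were left out and the rule chose dividing cells. The source of their division RNA was not tested. Several results that changed when the cells with 5 or more such UMIs were left out are given both ways below. That limit of 5 UMIs was set after the data were seen. Of the fibroblast markers, Col1a1 stood at 28.7 and 52.2 CPM in SHP099 and control dividing macrophages, and Col1a2 at 53.8 and 65.8 CPM. Each was found in 1.98% to 2.75% of these cells. In dividing tumour cells Col1a1 stood at 15.4 and 6.19 CPM and Col1a2 at 3.61 and 3.37 CPM. Dcn, Pdgfra, Pdpn and Acta2 of the same list were higher in dividing tumour cells. The source of this RNA was not tested.

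A larger share of C1q macrophages was dividing in the SHP099 library. It was 404 of 2324 (17.4%, interval 15.9 to 18.99%) in SHP099 and 182 of 2116 (8.60%, 7.44 to 9.88%) in control, a ratio of 2.02 (1.71 to 2.38). As a share of all barcodes that passed the quality limits, dividing C1q macrophages were 5.11% of 7900 in SHP099 and 2.29% of 7952 in control, while all C1q macrophages were 29.4% and 26.6%. Without the cells with 5 or more tumour or matrix UMIs the shares were 16.8% in SHP099 and 7.65% in control, a ratio of 2.20, and without the likely doublets 17.1% and 7.90%, a ratio of 2.16. The depth per C1q macrophage was close in the libraries, with medians of 4617.5 and 4741 UMIs. When every C1q macrophage was thinned to 3000 UMIs, which left out 488 SHP099 and 373 control cells as too shallow, the shares were 15.4% and 6.14%, a ratio of 2.51 (2.03 to 3.11). Within 7 bins of depth the ratio ran between 1.34 and 3.60, with the SHP099 share higher in each. Both ends of that range rest on few dividing cells. The ratio of 1.34 came from 13 SHP099 and 7 control cells, and its interval of 0.542 to 3.29 spans equal shares. The ratio of 3.60 came from 13 SHP099 and 3 control cells, with an interval of 1.04 to 12.4.

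The gap widened with a stricter limit. At 1 or more UMIs of the 4 division genes the shares were 30.9% in SHP099 and 24.2% in control, a ratio of 1.28. At 4 or more they were 12.5% and 4.40%, a ratio of 2.84 (2.26 to 3.56), at 6 or more 9.94% and 3.12%, a ratio of 3.19 (2.44 to 4.16), and at 10 or more 6.28% and 2.03%, a ratio of 3.09 (2.21 to 4.32). Just inside the limit, 87 SHP099 and 62 control cells had exactly 2 UMIs, and just outside it 315 and 330 C1q macrophages had exactly 1. Each of the 4 genes showed the same direction on its own after thinning. Mki67 was found in 8.88% of SHP099 and 3.04% of control C1q macrophages, Top2a in 15.7% and 7.86%, Ube2c in 10.6% and 6.25%, and Birc5, which encodes the mitotic protein survivin, in 15.1% and 8.15%.

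**Figure D1:**
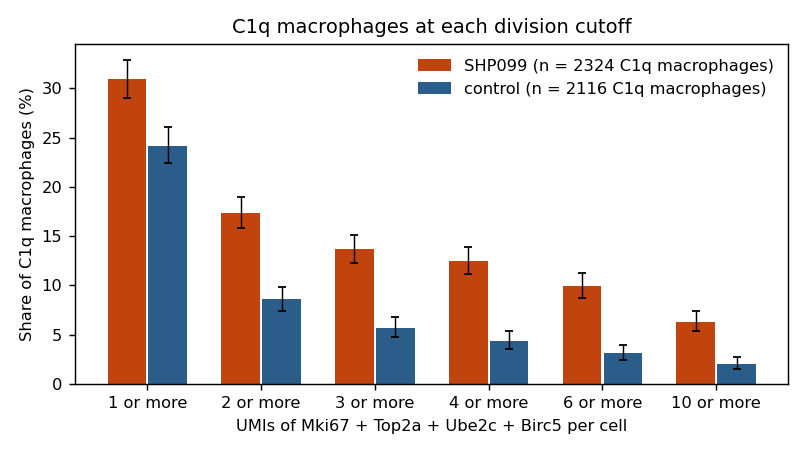
Share of C1q macrophages (y axis, percent) with at least the stated number of UMIs of Mki67, Top2a, Ube2c and Birc5 together (x axis), in the SHP099 library (2324 cells) and the control library (2116 cells). Error bars are exact binomial 95% intervals and cover counting error only. SHP099 is higher at every limit, by a ratio of 1.28 at 1 or more and 3.09 at 10 or more.

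The other dividing cells of the tumours did not all differ the same way between the libraries. By the same limit of 2 UMIs, 1093 of 1669 tumour cells (65.5%) were dividing in SHP099 and 1651 of 2240 (73.7%) in control, a ratio of 0.889 (0.851 to 0.927). Among T cells it was 74 of 348 (21.3%) in SHP099 and 74 of 466 (15.9%) in control, a ratio of 1.34 (1.00 to 1.79). These cell types differ in depth, so their shares are not set against that of the macrophages, and the difference between the ratios was not tested.

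Mitosis genes stood furthest above their level in non-dividing cells. A list member was measured when it reached 10 CPM in either group compared, and was called when it differed by 1.5-fold or more, with log2 ratios taken after adding 0.5 CPM. Over all genes measured, 13.8% were higher and 4% lower in dividing cells of SHP099, and 17.9% and 8.38% in control. These shares are given as a scale only, since the rule chose the cells by genes of the same kind. Of the 73 mitosis genes, 68 of 70 measured were higher in SHP099 and 65 of 68 in control, with median log2 ratios of 3.56 and 3.35 beside 0.08 over all genes in both libraries. Pbk, a mitotic kinase, stood at 91.6 CPM in dividing and 1.11 CPM in non-dividing cells of SHP099 and at 41.4 and 1.21 CPM in control. Nusap1, which bundles spindle microtubules, stood at 151 and 3.18 CPM in SHP099 and at 78.0 and 3.08 CPM in control. Cdca3, which triggers mitotic entry, stood at 177 and 7.34 CPM in SHP099 and at 111 and 4.16 CPM in control. Hmmr, Cenpf, Cenpe, Aurkb, Ccna2 and Ccnb2, which serve the spindle, the kinetochore and the mitotic kinase complexes, were also among the 12 highest of all genes by the smaller of their ratios in the 2 libraries, each with log2 ratios above 4 in both. Pttg1, which encodes securin, was called in neither library, at 85.1 and 89.9 CPM in SHP099 and 71.2 CPM in both groups of control. Ncapg2, a condensin subunit, was called in neither as well, with log2 ratios of 0.30 and -0.34, and Espl1, the separase that securin blocks, was called in SHP099 alone, at 0.89 and -0.04.

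DNA replication genes were higher by smaller ratios. All 55 measured members were called higher in SHP099 and 46 of 49 in control, with medians of 1.67 and 1.79. Pclaf led them, at 673 and 21.5 CPM in dividing and non-dividing cells of SHP099 and 486 and 13.7 CPM in control. Rrm2, the small subunit of ribonucleotide reductase, stood at 133 and 8.03 CPM in SHP099 and 111 and 7.38 CPM in control. The helicase genes stood higher by less, with log2 ratios of 1.65 and 2.07 for Mcm5 and of 1.04 and 1.63 for Mcm6, and so was Pcna, at 1.37 and 1.41. The cohesin and DNA repair genes had medians of 1.90 in SHP099 and 2.28 in control, and 15 of 16 measured in both libraries were called higher in both.

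Histones had medians of 2.91 in SHP099 and 2.60 in control, above those of the replication genes, over few members. Histone messages of the replication-dependent kind mostly lack poly(A) tails, so this capture sees few of them: 13 of 33 were measured in SHP099 and 8 in control. Hist1h2ap, an H2A gene, stood first of the 12 highest genes, at 234 and 4.57 CPM in SHP099 and 139 and 2.95 CPM in control. Hist1h1b, a linker histone, stood at 100.4 and 3.05 CPM in SHP099 and 53.6 and 2.01 CPM in control. Hist1h1c and Hist1h2bc did not follow, with log2 ratios between -0.36 and -0.01. Of 28 chromatin and cytoskeleton genes, 25 were called higher in both libraries, with medians of 1.71 and 1.43. Stmn1, which destabilises microtubules, stood at 953 and 64.9 CPM in SHP099 and 680 and 40.6 CPM in control.

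Genes of the supply lines of division differed by smaller steps. Nucleotide synthesis genes had medians of 0.63 and 0.82, and 13 of 29 measured in both libraries were called higher in both, against 9.04% of all genes. Sterol synthesis genes had medians of 0.48 and 0.78, and 4 of 13 were called higher in both, with Fdps, which makes farnesyl diphosphate, at 35.9 and 20.2 CPM in SHP099 and 59.7 and 20.5 CPM in control. The 69 nuclear genes of the respiratory chain had medians of 0.19 and 0.25, beside 0.08 over all genes, and 0 of them were called in both libraries.

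**Figure D2:**
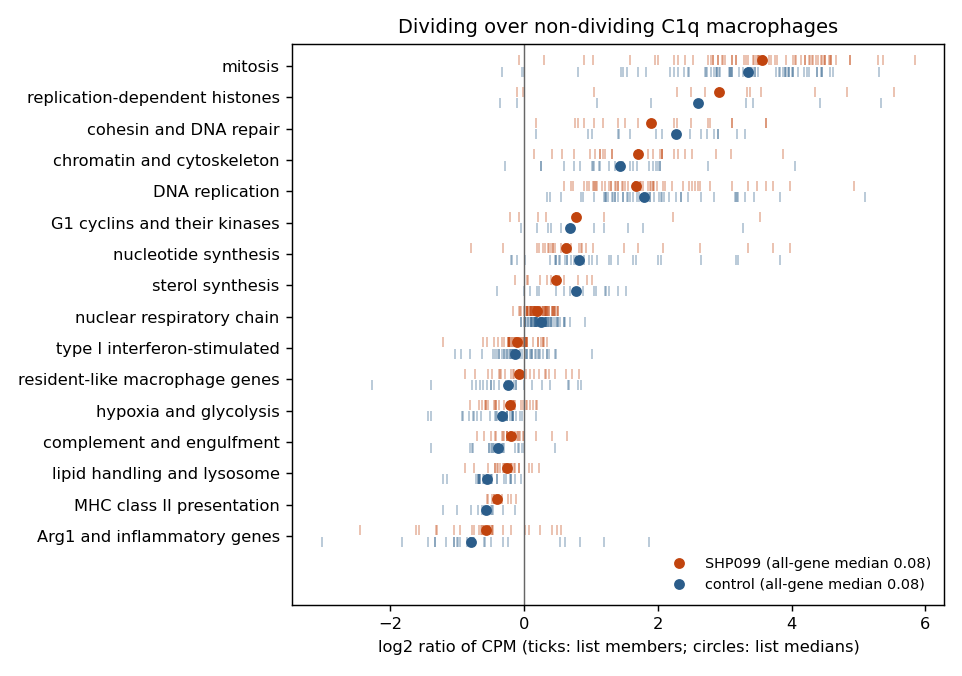
Log2 ratio of CPM in dividing over non-dividing C1q macrophages (x axis) for 16 gene lists (y axis), with SHP099 above control in each row. Ticks are list members at 10 CPM or more and circles are list medians. Mitosis (medians 3.56 and 3.35), histone, repair, chromatin and replication lists lie to the right, and the Arg1 and inflammatory list (-0.57 and -0.79) lies furthest left.

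Cyclins and brakes were uneven. The E cyclins that drive entry into S phase were high: Ccne2 stood at 32.3 and 2.35 CPM in dividing and non-dividing cells of SHP099 and 23.7 and 2.01 CPM in control, and Ccne1 at 32.3 and 6.51 CPM and at 29.8 and 8.32 CPM. Of the D cyclins, which answer to growth factors, only Ccnd3 was called higher in both libraries, with log2 ratios of 0.78 and 1.05. Ccnd1 had ratios of -0.22 and 0.36 and Ccnd2 of -0.07 and -0.04. Of 20 cell cycle brakes measured in both libraries, 6 were called higher and 3 lower in both, against 9.04% and 1.84% of all genes. Cdkn2c, which encodes p18, stood at 105 and 6.09 CPM in SHP099 and 63.1 and 11.3 CPM in control. Cdkn1a, which encodes p21, stood at 542 and 700.4 CPM in SHP099 and 496.5 and 687 CPM in control, and the antiproliferative genes Btg1 and Gadd45b were called lower in both. Mybl2, which encodes B-MYB, and the repressor genes E2f7 and E2f8 were higher in both libraries, with Mybl2 at log2 ratios of 3.65 and 2.70.

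The dividing cells carried replication and mitosis RNA in a broad mix. The DNA replication list gave 0.738 UMIs (0.720 to 0.756) for each UMI of the mitosis list in SHP099 and 0.890 (0.855 to 0.926) in control. The same quotient was 0.665 and 0.668 in dividing tumour cells and 1.03 and 0.980 in dividing T cells. Cell by cell, 160 SHP099 (39.6%) and 82 control (45.1%) dividing cells had more replication than mitosis UMIs, and 236 and 92 had more mitosis UMIs. The share with more replication UMIs was 45.1% and 43.9% in dividing tumour cells and 55.4% and 54.1% in dividing T cells, so the types did not stand in the same order by cells as by summed UMIs in SHP099. The counts differed by 2 UMIs or fewer in 46 and 36 cells, so the line between the classes is a cut through a range. Genes of the kinds that drew that line differ across it by the split itself, so their levels describe the split and test nothing. Cdc20, the activator of the anaphase-promoting complex, stood at 79.1 CPM in SHP099 and 85.3 CPM in control cells with more mitosis UMIs. In cells with more replication UMIs it stood at 3.41 and 5.89 CPM. Pcna went the other way, at 98.0 and 100.2 CPM against 341 and 330 CPM.

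**Figure D3:**
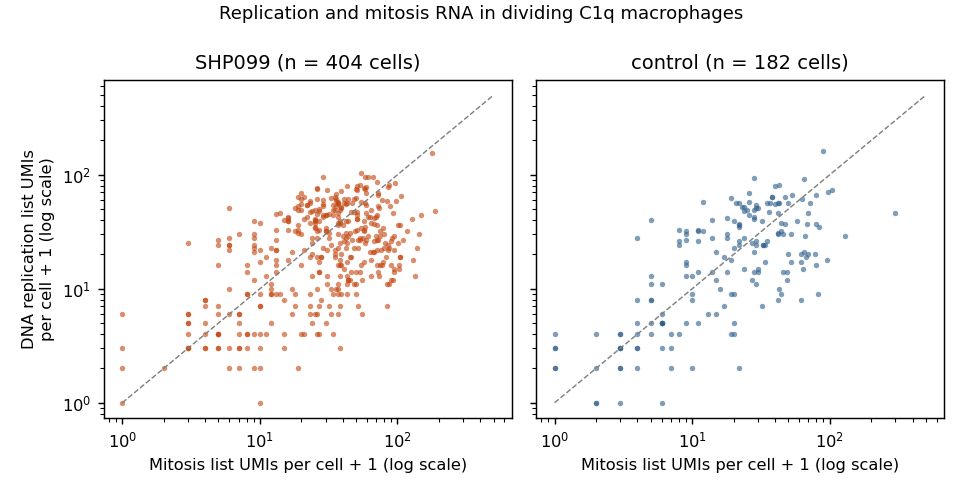
UMIs of 63 DNA replication genes (y axis) against UMIs of 73 mitosis genes (x axis) in each dividing C1q macrophage, both plus 1 on log scales, for 404 SHP099 and 182 control cells. The dashed line marks equal counts. In SHP099 236 cells lie below it and 160 above, and in control 92 below and 82 above.

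The number of division UMIs graded the cells. Cells with exactly 2 had mitosis list levels of 1611 CPM in SHP099 and 1216 CPM in control, cells with 4 to 9 had 4593 and 3765 CPM, and cells with 10 or more had 6875 and 5988 CPM, beside 659 and 614 CPM in non-dividing cells. Replication RNA peaked earlier, at 4658 and 4480 CPM in cells with 4 to 9 division UMIs, and was 3576 and 3300 CPM in those with 10 or more. Cells with exactly 2 made up 21.5% of the dividing cells in SHP099 and 34.1% in control. C1q RNA followed no such grade. In SHP099 it stood at 14516 CPM with 2 division UMIs, 11008 with 3, 12309 with 4 to 9 and 13178 with 10 or more. In control the same classes stood at 11318.5, 11381, 13181 and 10650.4 CPM.

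Away from the cell cycle, many Arg1 and inflammatory genes and some monocyte genes were lower in the dividing cells. The genes with the lowest ratios in both libraries began with Ly6c2, the monocyte surface antigen, at 87.7 and 431 CPM in dividing and non-dividing cells of SHP099 and 38.7 and 251 CPM in control. Plac8, another gene high in monocytes, stood at 186 and 585.5 CPM in SHP099 and 170.3 and 431 CPM in control. Mmp12, the macrophage elastase, stood at 58.0 and 173 CPM and at 41.4 and 147 CPM. Its share of cells with a UMI after thinning was 5.56% in dividing and 5.67% in non-dividing cells of SHP099 and 4.07% and 10.1% in control, or 7.92% and 6.42%, and 6.04% and 10.3%, without thinning, so no order is read from it in SHP099. The chemokine gene Ccl5 was lower by the same step in both libraries, at 350.1 and 763 CPM in SHP099 and 763 and 1664 CPM in control. The rest of the 12 lowest were Ly6i, Slfn5, Kdm7a, Plaur, Thbs1, Sgk1, Grina and Gpr35, with log2 ratios between -1.87 and -0.78. Of the Arg1 and inflammatory tumour macrophage genes, 13 of 27 measured in both libraries were called lower in both, against 1.84% of all genes, with medians of -0.57 in SHP099 and -0.79 in control. Of the monocyte genes, 5 of 17 were called lower in both and 1 higher, with medians of -0.14 and -0.28, and of -0.20 and 0.12 when set against non-dividing cells of matched depth. Arg1, the arginase that depletes arginine, stood at 333 and 516 CPM in SHP099 and 435 and 902 CPM in control. Vcan, a matrix proteoglycan, stood at 17.3 and 11.6 CPM in SHP099 and 24.4 and 6.30 CPM in control, and at 96.9 and 87.4 CPM in dividing tumour cells.

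List medians of mature macrophage tasks lay below 0, with few members called. MHC class II presentation genes had medians of -0.41 and -0.56 and 0 of 13 called in both libraries, with Cd74, the invariant chain, at 9025 and 13270 CPM in SHP099 and 8816 and 14240 CPM in control. Lipid handling and lysosome genes had medians of -0.26 and -0.55 with 2 of 27 called lower in both, and complement and engulfment genes outside the rule -0.20 and -0.39 with 1 of 23. Over all genes 1.84% were called lower in both. Apoe, the lipid carrier, stood at 13550 and 19770 CPM in SHP099 and 12240 and 18790 CPM in control. A CPM is a share of the total. When mitochondrial, ribosomal and cell cycle genes were left out of the total, the medians of these 3 lists stayed below 0. Set against non-dividing cells of matched depth, the medians were -0.01 in SHP099 and -0.10 in control for MHC class II, -0.0060 and -0.19 for complement and engulfment, and -0.29 and -0.55 for lipid handling and lysosome. The Arg1 and inflammatory list kept medians of -0.65 and -0.56 in that setting. Interferon-stimulated genes had medians of -0.11 and -0.13, and genes of SHP2 and ERK feedback of -0.04 and -0.05, close to the 0.08 of all genes.

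Of 17 chemokines measured in both libraries, 1 was called higher and 3 lower in both, against 9.04% and 1.84% of all genes. The rest were mixed. Ccl2, which calls in monocytes, was the higher one, at 758 and 495 CPM in SHP099 and 707 and 338.5 CPM in control. Ccl8, also a monocyte chemokine, stood at 801 and 579 CPM in SHP099, under the 1.5-fold limit, and at 1625 and 933 CPM in control. Ccl2 is higher still in dividing tumour cells, at 1412 and 1243 CPM. Cxcl10, which calls in T cells, stood at 746 and 445.5 CPM in SHP099 and 493 and 331 CPM in control, and Ccl6 and Ccl5 were lower in both.

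Counted by cells, the dividing cells more often held Cx3cr1, the fractalkine receptor of settled macrophages. The list of resident-like macrophage genes did not follow as a whole. Of 24 measured in both libraries, 1 was called higher and 2 lower in both, against 9.04% and 1.84% of all genes. After thinning to 3000 UMIs, 378 SHP099 and 172 control dividing cells remained. Cx3cr1 was found in 76.5% (71.8 to 80.6%) of dividing and 64.6% (61.9 to 67.3%) of non-dividing cells of SHP099, and in 53.5% (45.7 to 61.1%) and 40.8% (38.1 to 43.5%) in control. Without thinning these shares were 90.3% and 69.5% in SHP099 and 68.7% and 47.6% in control. In T cells, few of which should make it, the share was 12.9% and 10.3% after the same thinning and 9.77% and 10.7% without it, at median depths of 2327.5 and 2517.5 UMIs. After the same thinning, Mrc1 was found in 27.8% and 19.2% of dividing and non-dividing cells in SHP099 and 17.4% and 17.8% in control. Without thinning its shares were 43.8% and 26.2%, and 37.4% and 25%, so no order is read from it in control. Ccl12, a monocyte chemokine, was found in 65.1% and 55.5% of dividing and non-dividing cells in SHP099 and 43.6% and 33.3% in control, or 77.5% and 61.7%, and 54.9% and 37.9%, without thinning, against 3.45% of SHP099 T cells and 0 of 175 control ones, which allows up to 1.71%.

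Ly6c2 ran the other way. It was found in 12.96% (9.75 to 16.8%) of dividing and 24.6% (22.2 to 27.1%) of non-dividing cells in SHP099, and in 7.56% (4.09 to 12.6%) and 18.9% (16.7 to 21.1%) in control, or 19.6% and 28.1%, and 15.9% and 23.2%, without thinning. T cells make Ly6c2 and Ccr2 themselves, so they give no background for these genes. Arg1 was found in 31.5% and 38.4% of dividing and non-dividing cells in SHP099 and 48.8% and 53.4% in control, where the intervals overlap. Without thinning its shares were 42.1% and 39.5%, and 62.1% and 55.5%, an order opposite to that of the CPM. For Cxcl9 in SHP099 the share and the CPM gave opposite orders, and no order is read from it.

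Seen from the other side, the share of dividing cells differed by state. Among C1q macrophages thinned to 3000 UMIs, with the division limit applied after thinning, 17.6% (15.5 to 19.8%) of 1235 cells with a Cx3cr1 UMI and 11.0% (8.60 to 13.8%) of 601 without were dividing in SHP099. In control it was 7.91% (6.06 to 10.1%) of 733 and 4.85% (3.61 to 6.36%) of 1010, where the intervals overlap. Among cells with Ly6c2, 9.11% of 395 in SHP099 and 2.02% of 297 in control were dividing, against 17.1% and 6.98% of cells without it. In each of these 4 classes the SHP099 share was above the control share, so the difference between the libraries was present in cells with and without Cx3cr1 and with and without Ly6c2.

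**Figure D4:**
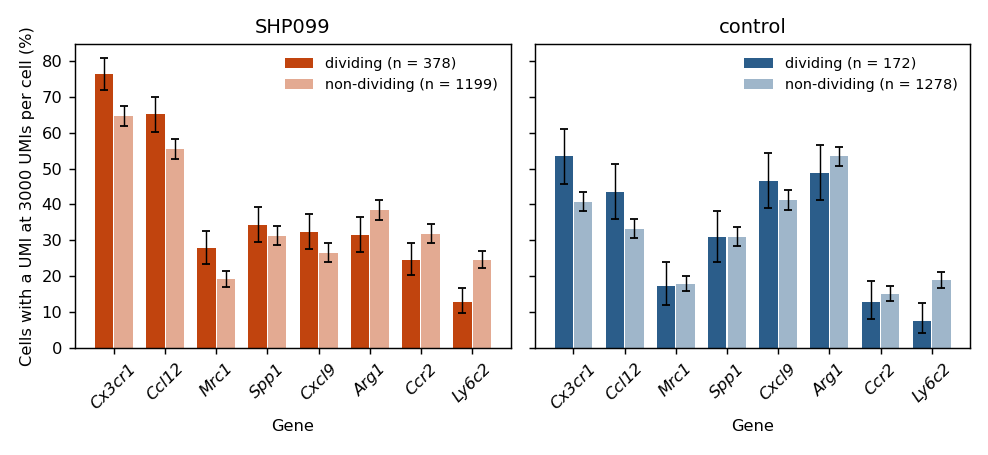
Share of cells with a UMI of each of 8 state genes after thinning every cell to 3000 UMIs (y axis, percent), in dividing (dark bars, 378 and 172 cells) and non-dividing (light bars, 1199 and 1278 cells) C1q macrophages, SHP099 on the left and control on the right. Error bars are exact binomial 95% intervals. Cx3cr1 and Ccl12 bars are taller in dividing cells of both libraries and Ly6c2 bars shorter.

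Between the treatments, interferon genes marked the dividing cells of the SHP099 library. Of the type I interferon-stimulated genes, 28 of 49 measured were 1.5-fold or more higher in SHP099 dividing cells and 0 were lower, where 9.25% of all 7435 genes were higher and 6.99% lower. The median log2 ratio of SHP099 over control was 0.71, beside 0.05 over all genes. In non-dividing cells of the same libraries it was 0.61, with 26 of 49 called higher and 0 lower against 3.81% and 2.72% of all genes, so the dividing cells shared the pattern with the non-dividing ones. Usp18, the protease that trims ISG15 from proteins, stood at 104 CPM in SHP099 and 45.5 CPM in control dividing cells (log2 ratio 1.18, interval 0.81 to 1.60). Ifit2, which blocks translation of viral RNA, stood at 48.9 and 18.99 CPM (1.34, 0.78 to 2.00), and Ifit1 at 124.5 and 69.2 CPM (0.84, 0.53 to 1.18). Zbp1, a sensor of nucleic acid, did not follow, with a log2 ratio of -0.25. Interferon-gamma-responsive genes had a median of -0.19, with Cxcl9 at 278 CPM in SHP099 and 600 CPM in control and Gbp2 at 152 and 313 CPM.

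The mitosis list was higher in SHP099 dividing cells, with a limit. Of 70 measured members 34 were called higher and 0 lower, against 9.25% and 6.99% of all genes. The median was 0.57 in dividing cells. Over the 13 members measured in non-dividing cells it was -0.04. Those cells were chosen for 0 UMIs of the 4 division genes, and the 2 medians cover different sets of members. They are therefore not set against each other. Knl1, a kinetochore scaffold, stood at 50.5 CPM in SHP099 and 14.9 CPM in control dividing cells (1.73, 1.11 to 2.48), and Kif11, the motor that separates spindle poles, at 50.5 and 22.4 CPM (1.16, 0.63 to 1.76). Cdk1 stood at 129 and 132 CPM and Cdc20 at 49.2 and 46.1 CPM. With the limit for dividing raised to 4 UMIs the median was 0.22, and the control library held more cells near the limit, as given above. Without the cells with 5 or more tumour or matrix UMIs it was 0.47, with 25 of 72 called higher. Of all 7230 genes, 762 were called higher in that setting. DNA replication genes had a median of 0.28 in dividing and 0.26 in non-dividing cells. Replication-dependent histones had a median of 0.75, with 9 of 13 called higher against 9.25% of all genes, among them Hist1h2ae at 125.5 and 62.4 CPM. Without the cells with 5 or more tumour or matrix UMIs the histone median was 0.56, with 7 of 14 called higher.

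Several genes of resident-like macrophages were among the highest in SHP099 dividing cells. Of that list, 9 of 23 were called higher and 1 lower, against 9.25% and 6.99% of all genes. The list median was 0.48, beside 0.21 in non-dividing cells. With the cells at or above the limit for tumour or matrix UMIs left out, 9 of 22 were called higher and 2 lower in dividing cells. In non-dividing cells 7 of 23 were then called higher and 1 lower, where 250 of all 6712 genes were higher and 181 lower. Part of the list was thus higher in the non-dividing cells too. Fcrls, an Fc receptor-like gene of microglia and other resident macrophages, stood at 191 CPM in SHP099 and 62.4 CPM in control dividing cells, a log2 ratio of 1.61 (1.30 to 1.95), beside 0.96 in non-dividing cells. Cx3cr1 stood at 569 and 271 CPM, a ratio of 1.07 (0.91 to 1.23), beside 1.14. Ccl12 stood at 1546 and 705 CPM, a ratio of 1.13 (1.03 to 1.23), beside 1.47. Ccr2, the monocyte chemokine receptor, stood at 122 and 46.1 CPM, a ratio of 1.39 (1.03 to 1.80), beside 1.12. Tmem119, Mef2c and Hes1 had ratios between 1.09 and 1.25, beside 0.52 to 0.70 in non-dividing cells. Ch25h, which makes 25-hydroxycholesterol, stood at 57.0 and 14.9 CPM, a ratio of 1.90 (1.29 to 2.65). The other genes among the 12 highest were Spp1, Usp18, Hist1h2ae, Ifi213 and Ppfia4.

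Spp1, which encodes osteopontin, depended on few cells. It stood at 978 CPM in SHP099 and 350 CPM in control dividing cells, a log2 ratio of 1.48. Without the cells with 5 or more tumour or matrix UMIs it stood at 714 and 445 CPM, a ratio of 0.68.

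**Figure D5:**
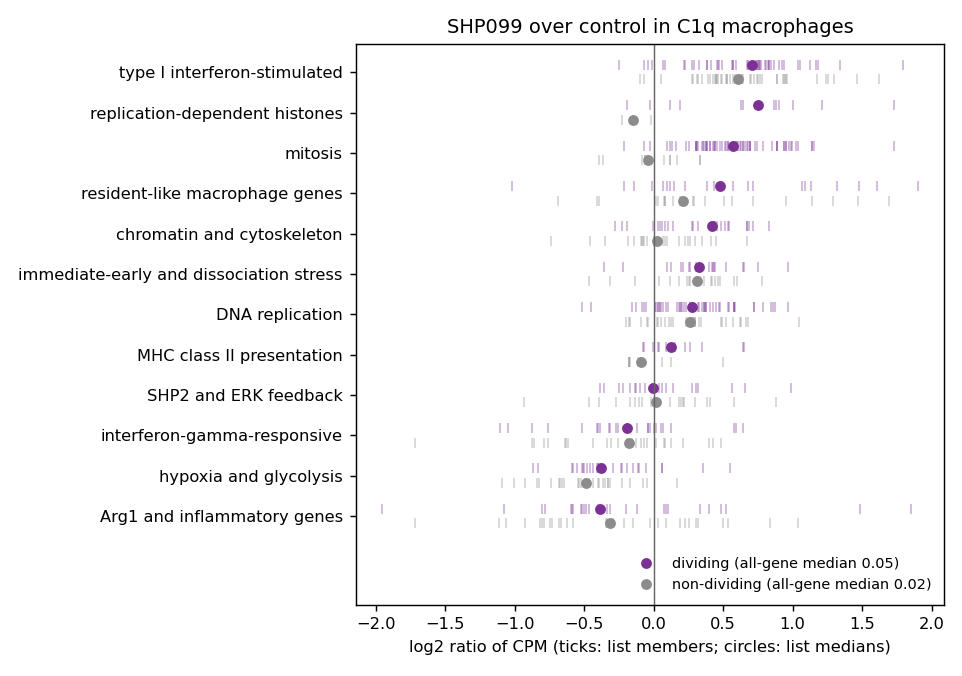
Log2 ratio of CPM in SHP099 over control (x axis) for 12 gene lists (y axis) in dividing (purple) and non-dividing (grey) C1q macrophages. Ticks are list members at 10 CPM or more and circles are list medians. The type I interferon list lies to the right in both kinds of cell (0.71 and 0.61), the mitosis list in dividing cells (0.57), and the hypoxia list to the left in both (-0.38 and -0.49).

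The hypoxia and the inflammatory lists had medians below 0 for SHP099 over control. Hypoxia and glycolysis genes had a median of -0.38 in dividing and -0.49 in non-dividing cells, and 3 of 29 were called lower in dividing cells, a share not far from the 6.99% of all genes. In non-dividing cells 10 of 29 were called lower, against 2.72% of all genes. Slc2a1, the glucose transporter GLUT1, stood at 32.6 and 58.3 CPM in dividing cells (-0.83, -1.27 to -0.41), and Vegfa, the angiogenic factor, at 144 and 217 CPM (-0.59, -0.80 to -0.38). With the limit for dividing raised to 4 UMIs the hypoxia median was -0.17. Arg1 and inflammatory genes had a median of -0.38, beside -0.31 in non-dividing cells, and 6 of 27 were called lower and 2 higher, against 6.99% and 9.25% of all genes. Arg1 stood at 333 CPM in SHP099 and 435 CPM in control dividing cells (-0.38, -0.53 to -0.24). Ccl5 stood at 350.1 and 763 CPM, a ratio of -1.12 in dividing and in non-dividing cells.

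Most other genes among the 12 lowest in SHP099 dividing cells are tumour or matrix genes. Cd34, Cyr61, Tuba1a, Col6a1, Fstl1, Gng11, Dcn, S100a4, S100a6 and Ly6c1 were all higher in dividing tumour cells than in dividing macrophages of either library, while Nupr1, a stress gene, stood at 123 and 287 CPM in the macrophages and 286 and 273 CPM in the tumour cells. Without the cells with 5 or more tumour or matrix UMIs, Dcn, the matrix proteoglycan decorin, had a ratio of -0.01 in place of -1.20, and Cyr61, a matricellular protein, -0.10 in place of -1.42. S100a6 had -0.90 in place of -1.22 and Ccl5 -1.39 in place of -1.12. Nupr1 then had -0.04, Ly6c1 -0.24 and S100a4 -0.78. With those cells left out, the lowest genes, picked after their values were seen, were Ccl5, Ifitm1, Cxcl9, Ccl8, Thbs1, Ccl6, Adam8, Tgm2, S100a6, Cxcl2, Crem and Ppp1r14b, and Ccl8 stood at 854.5 CPM in SHP099 and 1756 CPM in control. The interferon list was then higher for 32 of 49 members with a median of 0.72, against 762 of all 7230 genes called higher.

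The target of the drug and its pathway differed little as a list. Ptpn11 stood at 28.4 CPM in SHP099 and 31.2 CPM in control dividing cells, a log2 ratio of -0.14 (-0.67 to 0.41), as far as so few UMIs can show, and SHP099 blocks the protein, not the RNA. Of the SHP2 and ERK feedback genes, 2 of 21 were called higher and 0 lower, against 9.25% and 6.99% of all genes. The share called higher is thus close to that of all genes. Dusp6, the phosphatase that ERK induces against itself, stood at 89.3 and 44.8 CPM (0.99, 0.60 to 1.41), beside 0.88 in non-dividing cells. Csf1r stood at 320.5 and 227 CPM (0.50, 0.32 to 0.68), beside 0.08 in non-dividing cells. Immediate-early and dissociation stress genes had medians of 0.33 in dividing and 0.32 in non-dividing cells, with Hspa1a, a heat shock protein, at 115 CPM in SHP099 and 58.3 CPM in control dividing cells. Their part in the other differences between the libraries was not tested.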

How the data were processed

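Single-cell RNA was captured with the 10x Genomics 3′ chemistry from 1 SHP099 and 1 control MC38 tumour library, per the labels. The deposited values are raw UMI counts per gene and barcode, made with Cell Ranger on GRCm38 (mm10), per the submitters' processing notes; the matrix header gives software version 3.1.0. The sources used here name no gene annotation. Cells were chosen by UMI limits, and counts were summed by library and class and divided by the class total (CPM). The libraries held 112902000 and 126218000 UMIs, rounded, over 8263 and 8245 barcodes. Log2 ratios carry a prior of 0.5 CPM, list members need 10 CPM in 1 group, and called means a 1.5-fold difference. Likely doublets were scored with Scrublet in scanpy 1.11.5 but kept, and leaving them out was an alternative. The code was checked on simulated data.

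Members and gene lists were chosen with earlier results of these data known. The text names the 12 highest and 12 lowest genes per comparison (50 CPM or more between classes, 100 CPM or more between libraries, a UMI in at least 10% of cells), up to 4 members at either end of each list, a fixed panel of cell cycle, state and marker genes, and further genes chosen after their values were seen. The last are Adam8, Crem, Ifitm1, Ppp1r14b and Tgm2. Tools were Python 3.11.15, numpy 2.4.6, scipy 1.17.1 and pandas 2.3.3.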

Additional observations from a re-analysis of the deposited data

Results flagged for a closer look

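Some genes differed in sign between settings compared alike, and none of these differences was tested. Spp1 had a log2 ratio of dividing over non-dividing cells of 0.41 in SHP099 and -0.76 in control. The other 8 genes are those whose ratio of SHP099 over control was below 0 in dividing cells and above 0 in non-dividing cells. These ratios were -1.55 and 0.54 for Cd34, -1.42 and 1.00 for Cyr61, -1.28 and 0.31 for Tuba1a, and -1.27 and 0.84 for Col6a1. They were -1.22 and 0.43 for Fstl1, -1.22 and 0.20 for Nupr1, -1.21 and 0.24 for Gng11, and -1.20 and 1.13 for Dcn. Without the cells with 5 or more tumour or matrix UMIs, the ratio in dividing cells was -0.96 for Cd34, -0.86 for Col6a1, -0.54 for Gng11, -0.34 for Tuba1a and 0.27 for Fstl1.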

How the results depend on the processing

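Of 13 alternatives, 1 was chosen after seeing the data. List medians under the 1.5-fold limit changed sign 7 times, in 5 results, and those past it did not. The MHC class II median of SHP099 over control was 0.13, and -0.06 thinned and -0.0074 with each cell counted alike. The SHP099 median of dividing over non-dividing for resident-like genes was -0.08, and 0.06 at 50 CPM or more and 0.14 against cells matched on UMIs. The control median for monocyte genes was -0.28, and 0.12 against matched cells. With dividing set at 4 or more UMIs, the share was 12.5% in SHP099 and 4.40% in control (ratio 2.84), the control mitosis median of dividing over non-dividing was 3.93, the medians of SHP099 over control were 0.22 for mitosis and -0.17 for hypoxia, and replication over mitosis UMIs was 0.674 and 0.764. Thinned to 3000 UMIs first, these were 15.4% and 6.14% (2.51), 3.67, and 0.651 and 0.803, and 1502 genes were higher and 1006 lower in SHP099 dividing cells in place of 688 and 520. With each cell counted alike, the mitosis median of SHP099 over control was 0.68 and the quotients were 0.757 and 0.930. With 0 tumour UMIs and at least 1 Xist UMI required, the control quotient was 0.933. A prior of 5 CPM gave mitosis medians of 2.51 and 2.14 and 436 genes higher and 328 lower. A limit of 50 CPM gave 151 and 86, and no limit 2865 and 2139. Against non-dividing cells matched on UMIs, the control Arg1 and inflammatory median was -0.56, and the interferon medians were 0.0037 and 0.12 in place of -0.11 and -0.13. The cause of these shifts was not tested. No paired analysis was possible because each group has 1 library.

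Depth limits genes of low level: 1 UMI is worth more CPM in the 182 control dividing cells than in the 404 of SHP099. With 1 library a group, treatment and library cannot be told apart.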
